A study of Mus musculus with 47 samples.

Results

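The NADH shuttles were described here through the 10 genes that encode their enzymes and carriers, which were Mdh1, Mdh2, Got1, Got2, Slc25a11, Slc25a12, Slc25a13, Gpd1, Gpd1l and Gpd2. They were chosen by name for their place in the malate-aspartate and glycerol phosphate shuttles, and all 10 were found among the 56748 genes of the count table. RNA was measured in bulk in B78-D14 cells, an amelanotic mouse melanoma line derived from B16 and lacking Cdkn2a, and in tumors these cells formed. The cultures were 4 of cells with the m.11,944 edit at 60% heteroplasmy and 4 of control cells. The tumors came from m.12,436 60% cells (7), m.12,436 40% cells (7) and control cells (4).

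Both edits are G>A changes that truncate Mt-Nd5, a mtDNA-encoded subunit of respiratory complex I, and were made in cell populations by transfection of a mitochondrial base editor. Heteroplasmy is the share of mtDNA copies that carry the edit. The cells were injected under the skin of male C57BL/6 mice with an intact immune system, and fragments of the tumors were sequenced. No sample received a treatment. Each mutant group rests on 1 edited cell population, so an effect of the edit and a property of that population cannot be told apart. The same 4 control tumors enter both comparisons of mutant with control tumors. The columns of the cells were matched to their groups through a heading in the study's source data and through the extent of the numbering, and those of the mutant tumors through the words high and low for heteroplasmy, since the column names do not spell out the groups. Nothing in the labels says that samples of a group came from separate cultures or animals, so p-values measure the spread between these samples.

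NADH made in the cytosol cannot cross the inner mitochondrial membrane, and its electrons enter mitochondria through shuttles. In the malate-aspartate shuttle, cytosolic malate dehydrogenase (Mdh1) passes the electrons to malate, which the oxoglutarate carrier (Slc25a11) brings into the matrix, where Mdh2 oxidizes it again. The aminotransferases Got2 in the matrix and Got1 in the cytosol turn oxaloacetate into aspartate and back, and the aspartate-glutamate carriers aralar (Slc25a12) and citrin (Slc25a13) export the aspartate. In the glycerol phosphate shuttle, cytosolic glycerol 3-phosphate dehydrogenase (Gpd1, or the related Gpd1l) uses NADH, and Gpd2 on the inner membrane hands the electrons to ubiquinone, a step that bypasses complex I.

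The sequence just upstream of the start is shown for Got1, Got2 and Gpd2, the 3 genes called when all 4 mutant and 4 control cultures were fitted with the culture number as a block. Sequences are from RefSeq on GRCm38.p6, run 5′ to 3′ on the gene's strand and hold the 250 bases before an annotated start. RefSeq had an entry for 9 of the 10 genes and gave Gpd2 both an upstream and a downstream start. Capitals mark a match to the amino acid response element, TGATGCAA on either strand.
Got1, chr19:43524606-43524855, - strand: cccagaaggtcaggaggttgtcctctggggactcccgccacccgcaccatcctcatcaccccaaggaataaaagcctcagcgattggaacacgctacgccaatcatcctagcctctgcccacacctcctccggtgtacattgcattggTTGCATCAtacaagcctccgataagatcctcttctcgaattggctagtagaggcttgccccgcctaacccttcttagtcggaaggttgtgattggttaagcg
Got2, chr8:95888402-95888651, - strand: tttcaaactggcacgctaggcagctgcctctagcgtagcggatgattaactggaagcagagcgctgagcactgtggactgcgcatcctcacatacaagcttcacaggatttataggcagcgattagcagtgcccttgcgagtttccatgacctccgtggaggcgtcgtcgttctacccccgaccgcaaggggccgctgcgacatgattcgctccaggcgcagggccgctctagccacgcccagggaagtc
Gpd2, upstream start, chr2:57237428-57237677, + strand: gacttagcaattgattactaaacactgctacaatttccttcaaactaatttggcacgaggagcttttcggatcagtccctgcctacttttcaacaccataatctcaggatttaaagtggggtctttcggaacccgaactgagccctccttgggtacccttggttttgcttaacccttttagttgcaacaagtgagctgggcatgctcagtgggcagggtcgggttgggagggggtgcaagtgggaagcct
Gpd2, downstream start, chr2:57238132-57238381, + strand: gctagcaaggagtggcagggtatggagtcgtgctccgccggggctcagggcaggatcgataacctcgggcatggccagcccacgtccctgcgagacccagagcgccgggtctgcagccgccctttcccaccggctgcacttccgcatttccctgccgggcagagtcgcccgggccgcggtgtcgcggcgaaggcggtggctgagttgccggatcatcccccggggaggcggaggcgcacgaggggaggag

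Of these windows, that of Got1 held the element, as TTGCATCA with its first base 102 bases upstream of the start, and no other of the 10 windows of these genes held it. The element was present in 260 of 32851 RefSeq promoter windows of the same length (0.791%). The E-box CACGTG occurred in the windows of Slc25a13 and Gpd1l and in 6.02% of all windows, and the cAMP response element TGACGTCA in that of Mdh2 and in 1.55% of all. The NRF1 palindrome occurred in none of the 10 windows and in 0.782% of all. The last 3 motifs read the same on both strands, and none of the matches in these windows overlapped another. A match describes the letters alone.

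In GRCm39, Got1 lies at chr19:43488188-43513674, Got2 at chr8:96590760-96615190 and Gpd2 at chr2:57127515-57260734. Whether the counting used strand is unknown from the sources used here, and 7 of the 10 genes overlap another annotated gene. Mdh1 overlaps the coding gene Wdpcp by 679 bases and Slc25a11 overlaps Rnf167 and Gp1ba. On the opposite strand, the span of Got2 overlaps those of Gm45760, Gm64261 and Gm64265 by 1782, 1612 and 426 bases. That of Gpd2 overlaps those of A930012O16Rik and Gm13535 by 1156 and 3123 bases, also on the opposite strand. The whole 7498 bases of Gpd1 lie within the span of Gm16537, a noncoding gene on the opposite strand, so that reads of the pair may not be separable.

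Between 25249060 and 36173502 reads per culture and between 16475735 and 31218475 per tumor were counted on genes. Levels are given as CPM, counts scaled to a common library size with the TMM method. Of the 6 melanoma markers examined, Mitf had 194 to 630 counts in every culture, while Tyr was at 0 in all of them and Mlana and Dct at no more than 3 and 10 counts. Sox10 and Pmel had at most 9 and 11 counts. The melanoma label thus rested on Mitf, with Sox10 and the pigment genes at or near 0. In tumors, 1 library stood apart: control tumor 3 had a summed melanoma marker level of 63.7 CPM, against 15.2 to 28.1 CPM in the others, and its Dct count was 798 where every mutant tumor had 0. Skeletal muscle markers summed to over 10 CPM in 2 of 4 control tumors, 3 of 7 m.12,436 60% tumors and 7 of 7 m.12,436 40% tumors. Leukocyte markers summed to 970 to 1168 CPM in control tumors, 664 to 1020 CPM in 40% tumors and 923 to 1396 CPM in 60% tumors. Most of each sum was Lyz2, at 815 to 1007, 499 to 834 and 740 to 1242 CPM in the same order. Other markers did not all follow it. Ptprc ran from 51.0 to 95.8 CPM in control and from 81.3 to 154 CPM in 60% tumors. The lowest Cd68 was 75.7 CPM in control and 55.9 CPM in 60% tumors, and its highest value was also lower in 60% tumors. Both genes overlapped between these groups. In bulk tumors, fewer cells of a type and less RNA per cell cannot be told apart.

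Within control cells, levels per kilobase of annotated exon fell into an order led by the mitochondrial enzymes. Got2 stood at 79.3 ± 4.11 CPM per kb (SD, n = 4) and Mdh2 at 61.9 ± 9.65 CPM per kb (SD, n = 4), and these neighbors did not overlap. Got1, Mdh1 and Gpd2 followed at 36.1, 27.5 and 23.8 CPM per kb, with overlap between each and the next. Slc25a11 was the most abundant carrier at 16.7 CPM per kb, above Slc25a12 at 11.1 and Slc25a13 at 8.54, each overlapping the next. Of the cytosolic glycerol 3-phosphate dehydrogenases, Gpd1l had 2.05 CPM per kb and Gpd1 0.0763 CPM per kb, with 6 to 9 counts of Gpd1 per control culture. In control tumors Mdh2 and Got2 shared the lead at 43.2 ± 4.18 and 39.8 ± 3.78 CPM per kb (SD, n = 4) with overlapping values, and Gpd1 was again last at 0.390 CPM per kb.

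**Figure D1:**
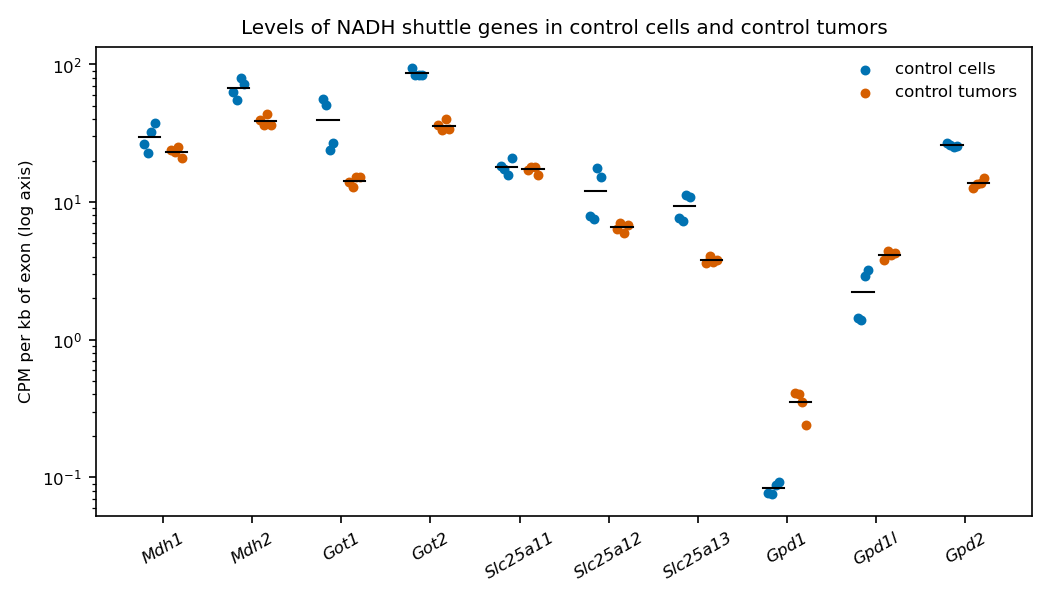
Levels of the 10 shuttle genes as CPM per kb of annotated exon on a log axis, in 4 control cultures (blue) and 4 control tumors (orange) scaled together, with a black line at each mean. Got2 and Mdh2 lie at the top in both materials and Gpd1 at the bottom, with the tumor values below those of the cultures without overlap for Mdh2, Got1, Got2, Slc25a12, Slc25a13 and Gpd2.

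The comparison of m.11,944 60% with control cells asked whether the shuttle genes differ when complex I is truncated in cultured cells. Differences are given on the log2 scale ± 1 standard error (SE), from edgeR's quasi-likelihood test with Benjamini-Hochberg adjustment. Of the 9 genes tested, 0 passed the adjusted p of 0.1, where 0.0387% of 12930 genes did (0.00773% higher and 0.0309% lower in mutant cells). At an unadjusted p under 0.05 there was 1, Gpd2, where 4.11% of all genes were under it. Gpd1 was not tested, because its 4 to 11 counts per culture fell below the filter on low counts. The 4 cultures of both groups bear the numbers 1 to 4, and same-numbered cultures deviated together, so the comparison was also fitted with the number as a block. In that fit Got1, Got2 and Gpd2 fell, where 4.09% of all genes were called lower and 7.11% in either direction.

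Got2, the matrix aminotransferase, had 475, 432, 424 and 434 CPM in control cultures 1 to 4 and 418, 364, 371 and 355 CPM in mutant cultures 1 to 4. Every mutant culture lay below every control culture. The difference was -0.23 ± 0.10 with an adjusted p of 1.00 without the block, and -0.23 ± 0.06 with an adjusted p of 0.0775 with it.

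Gpd2, which feeds electrons to ubiquinone, had 199.6, 195, 190.0 and 197 CPM in control cultures 1 to 4 and 153, 139, 169.9 and 189 CPM in mutant cultures. The groups again did not overlap, with mutant culture 4 just under the lowest control. Without the block Gpd2 differed by -0.26 ± 0.11 (adjusted p = 1.00), and in the blocked fit by -0.27 ± 0.08 (adjusted p = 0.0975). Got2 and Gpd2 were the 2 shuttle genes whose groups did not overlap, where 3.48% of the genes tested did not.

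Got1, the cytosolic aminotransferase, had 263, 242, 112 and 129 CPM in control cultures 1 to 4 and 198, 188, 100 and 109 CPM in mutant cultures. The groups overlapped, because cultures 3 and 4 of both groups lay far below cultures 1 and 2, while within each number the mutant culture was the lower. The unblocked difference of -0.32 ± 0.35 had an adjusted p of 1.00 and the blocked one of -0.29 ± 0.07 an adjusted p of 0.0510.

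**Figure D2:**
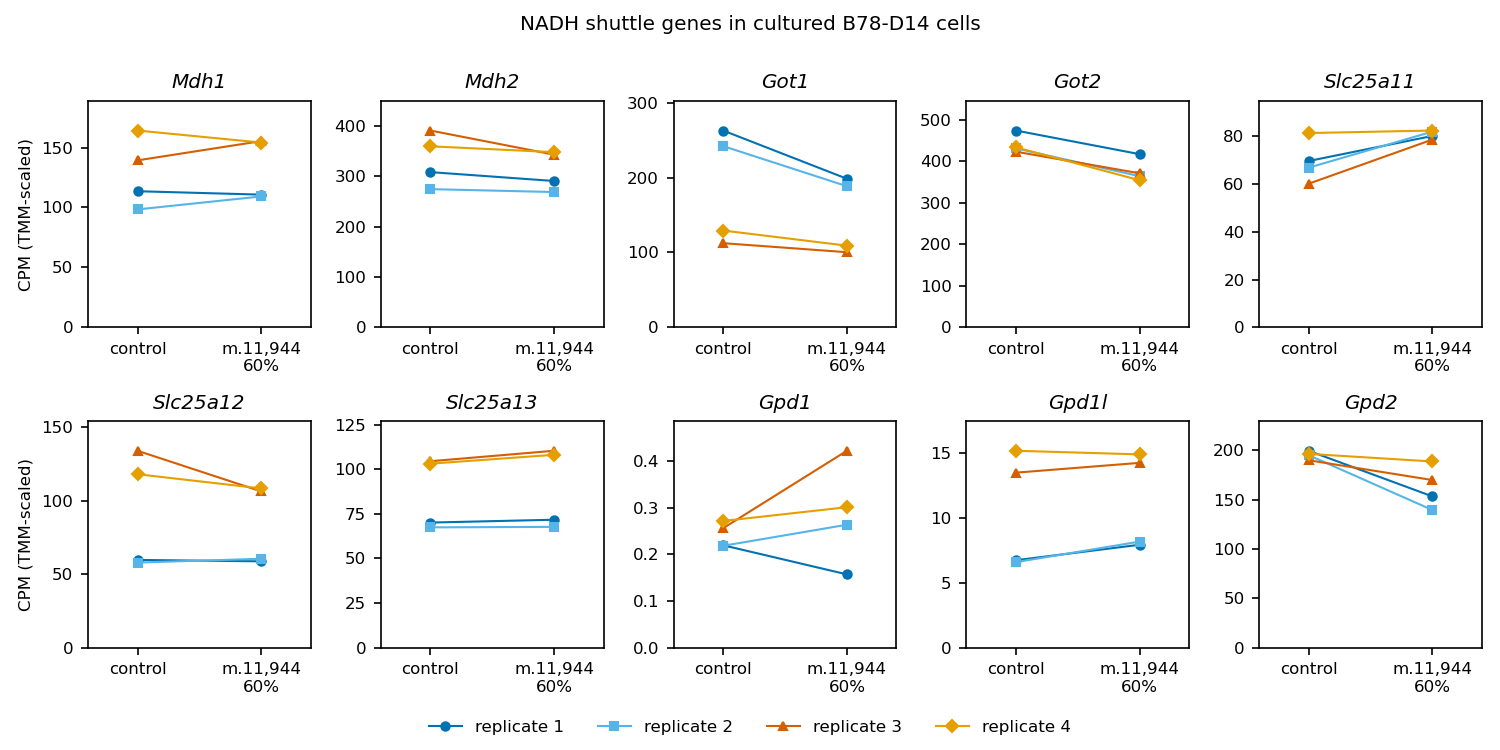
CPM of each shuttle gene in control cultures (left of each panel) and m.11,944 60% cultures (right), with a line joining same-numbered cultures and axes from 0. The lines of Got1, Got2, Mdh2 and Gpd2 fall in 4 of 4 numbers, and for Got1, Slc25a12 and Gpd1l cultures 1 and 2 lie apart from 3 and 4. The share of all genes that fall in 4 of 4 numbers was not counted.

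The blocked calls rested on few cultures. Leaving out number 1 or number 2 from both groups left 0 shuttle genes called, while without number 3 there were 2 and without number 4 there were 3, of which 1, Slc25a11, was higher. The share of all genes called moved as well, from 0.689% without number 1 and 0.852% without number 2 to 4.64% without number 3 and 16.2% without number 4. Without number 1 the adjusted p was 0.311 for Got1, 0.315 for Got2 and 0.417 for Gpd2 at differences of -0.25, -0.24 and -0.23, and without number 2 it was 0.255, 0.319 and 0.410. In the blocked fit 12.2% of 711 genes on chromosome 8, which holds Got2, were called lower, against 3.63% on other nuclear chromosomes, and the part of this in the value of Got2 was not tested.

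The other members gave no call in either fit. The oxoglutarate carrier Slc25a11 had 69.6, 66.8, 60.1 and 81.3 CPM in control cultures and 80.1, 81.9, 78.6 and 82.4 CPM in mutant cultures, higher in 4 of 4 numbers. With the block it differed by 0.23 ± 0.08 (adjusted p = 0.127). Mdh2 was lower in 4 of 4 numbers and Slc25a13 higher in 4 of 4, with blocked differences of -0.09 (adjusted p = 0.427) and 0.05 (adjusted p = 0.692). Mdh1, Slc25a12 and Gpd1l went both ways among the numbers, with blocked values of 0.04, -0.11 and 0.14 on the log2 scale.

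The values of most shuttle genes also split by culture number, as did those of most genes. Cultures 1 and 2 did not overlap cultures 3 and 4, over both groups, for Mdh1, Mdh2, Got1, Slc25a12, Slc25a13 and Gpd1l, which is 6 of the 10 members where 53.7% of the genes tested did not overlap. Slc25a12 went from 57.9 to 60.5 CPM in cultures 1 and 2 to 106 to 134 CPM in cultures 3 and 4, and Gpd1l from 6.58 to 8.16 CPM to 13.5 to 15.2 CPM. Got1 moved the other way, from 188 to 263 CPM down to 100 to 129 CPM. Asns, asparagine synthetase, which consumes aspartate, was named after its values were seen. It took the same direction as Got1, with 599 to 676 CPM in cultures 1 and 2 and 131 to 328 CPM in cultures 3 and 4. Between mutant and control cultures of the same number it did not follow Got1, being lower in 2 and higher in 2 (adjusted p = 0.398 in the blocked edgeR fit). The labels do not say what the number stands for.

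In tumors, Got2 was the shuttle gene that fell in m.12,436 60% against control tumors. It was 1 of 10 members called lower where 1.34% of 16213 genes were called lower and 2.31% in either direction. Got2 had 221, 203, 251 and 210.2 CPM in control tumors 1 to 4, and 173 CPM at the lowest, 184 at the median and 195 at the highest in the 7 m.12,436 60% tumors. The groups did not overlap. The difference of -0.27 ± 0.07 (SE) had an adjusted p of 0.0888 in edgeR's quasi-likelihood test, and by geometric means the 60% level was 0.831 of the control level.

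Against m.12,436 40% tumors, in which Got2 ran from 191 to 261 CPM with a median of 215, it fell as well. Of the 7 60% tumors, 6 lay below every 40% tumor. It differed by -0.25 ± 0.06 (adjusted p = 0.0744) and was 1 of 10 members called lower, where 0.993% of all genes were. Between 40% and control tumors the value was -0.02 ± 0.08 (adjusted p = 0.991).

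The call on Got2 was close to the threshold. Leaving out control tumor 3, which had the highest Got2 and the pigment gene signal, gave -0.20 with an adjusted p of 0.417, and leaving out control tumor 1 gave an adjusted p of 0.210. Each of 60% tumors 1 to 5 also ended the call against control tumors when left out, with adjusted p from 0.116 to 0.152. Over all fits with 1 tumor left out, the difference from control tumors ran from -0.30 to -0.20, the smallest without control tumor 3. The call against 40% tumors ended without 60% tumor 1, 2 or 4 or 40% tumor 1, 2 or 6, with adjusted p from 0.112 to 0.157. That difference ran from -0.28 to -0.21 with 1 tumor left out. DESeq2 gave an adjusted p of 0.0249 against control and 0.0109 against 40% tumors. With the replicate number as a block, neither call held. In the 2 control and 4 60% tumors under 10 CPM of muscle markers the value was -0.35 with an adjusted p of 0.360. On chromosome 8, 5.93% of 860 genes were called lower in 60% tumors against controls, against 1.09% on other nuclear chromosomes, and its part in the value of Got2 was not tested.

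**Figure D3:**
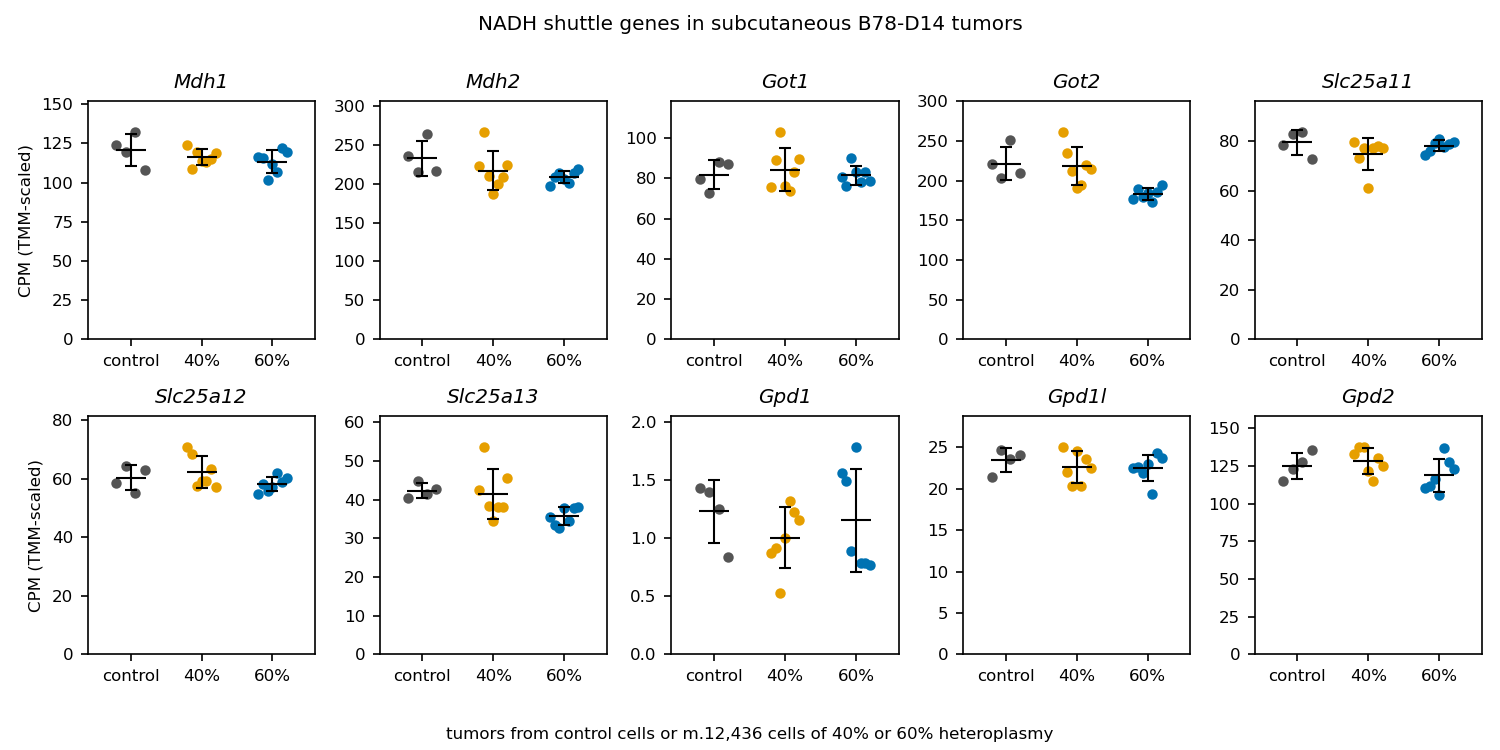
CPM of each shuttle gene in 4 control, 7 m.12,436 40% and 7 m.12,436 60% tumors, with points for tumors, black lines for mean ± SD and axes from 0. Got2 lies between 173 and 195 CPM in 60% tumors and at or above 203 CPM in control tumors, and Slc25a13 separates the same groups.

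The citrin gene Slc25a13 showed a similar separation without a call. It had 40.4, 44.9, 41.4 and 42.7 CPM in control tumors 1 to 4, and 32.8, 35.6 and 38.2 CPM at the lowest, median and highest 60% tumor. The groups did not overlap, which held for 2 of 10 members, Got2 and Slc25a13, where 4.07% of all genes did not. Both were also the members under an unadjusted p of 0.05, where 16.3% of all genes were. Slc25a13 differed by -0.24 ± 0.09 (adjusted p = 0.189), and with only these groups in the fit the adjusted p was 0.0463. Against 40% tumors, which ran from 34.4 to 53.6 CPM and overlapped both other groups, it was at -0.21 ± 0.08 (adjusted p = 0.203).

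Mdh2 had 235, 215, 263 and 216 CPM in control tumors 1 to 4, against 197, 208 and 219 CPM at the lowest, median and highest 60% tumor. Of the 60% tumors, 6 of 7 lay below every control tumor. Mdh2 differed by -0.16 ± 0.08 (adjusted p = 0.318). For the remaining members the difference lay between -0.10 for Gpd1 and -0.01 for Got1, none with an adjusted p under 0.451. All 10 values were below 0, with a median of -0.08 where the median over all genes was -0.003 and the median size over all genes 0.13. The sign turned for Got1 with a replicate block, for Gpd1 without the muscle-bearing tumors, and for Got1 and Slc25a11 when a tumor such as control tumor 3 was left out.

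In m.12,436 40% against control tumors, no member passed the threshold, and neither did any of the 16213 genes, so the share called was 0% with edgeR. Over all genes, 825 had an unadjusted p under 0.05 (5.09%) and DESeq2 called 5. Among the members the smallest p was that of Slc25a11, which differed by -0.09 (adjusted p = 0.938), and 0 of 10 had groups without overlap, where 0.450% of all genes did. The median over the members was -0.04, 7 values being below 0 and 3 above. In 60% against 40% tumors 1.81% of all genes were called in either direction, and 14.1% had an unadjusted p under 0.05, with Got2 and Slc25a13 among the members. No member was free of overlap there, where 0.623% of all genes were, and the next smallest p was that of Gpd2, at -0.11 ± 0.06 (adjusted p = 0.418).

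**Figure D4:**
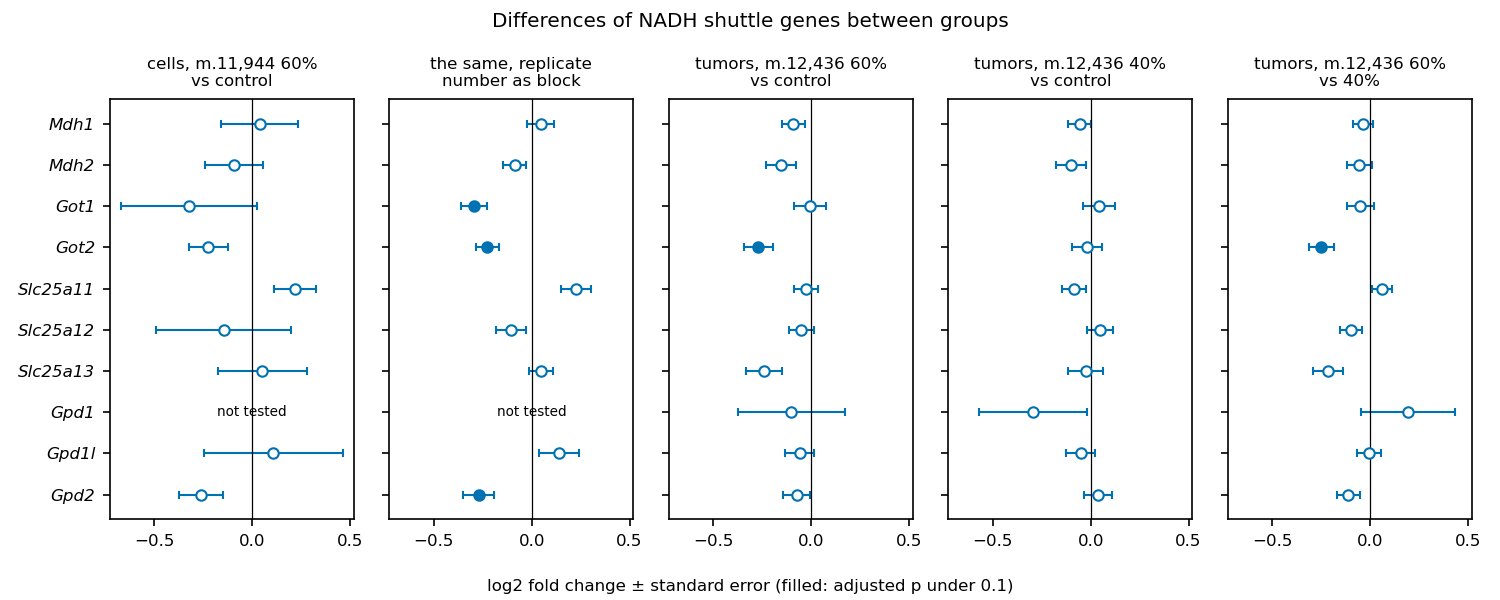
Log2 difference ± standard error of each shuttle gene in the comparison of cells, without and with the replicate block, and in the 3 comparisons of tumors, filled where the adjusted p was under 0.1. Got2 lies at -0.23 in the blocked cells, -0.27 in 60% against control tumors and -0.02 in 40% against control tumors.

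Ratios of partner genes within a sample do not depend on library scaling and were compared by exact two-sided permutation over 20 tests, of which 0 passed an adjusted p of 0.1. In control tumors the log2 ratio of Got1 to Got2 averaged -1.43 ± 0.11 (SD, n = 4), and in 60% tumors -1.17 ± 0.11 (SD, n = 7). That is 0.26 higher (exact permutation p = 0.0182, adjusted to 0.182 over the ratios). That of Slc25a12 to Slc25a13 averaged 0.70 ± 0.10 (SD, n = 7) and 0.51 ± 0.06 (SD, n = 4), 0.19 apart (exact permutation p = 0.00606, adjusted to 0.121). The smallest exact p these groups allow is 0.00303, and 4 against 4 cultures allow 0.0286. In cells no ratio had a smaller p than that of Mdh1 to Mdh2, 0.229 by exact permutation, but these permutations ignored the culture number. Within numbers, a comparison added after the values were seen, the log2 ratio of Gpd1l to Gpd2 was higher in the mutant culture in 4 of 4, by 0.03 to 0.80 (exact sign-flip p = 0.125, the smallest that 4 pairs allow). The other 4 ratios went both ways among the numbers.

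Control tumors were compared with control cells to show where the shuttle genes stand in tissue. Of all genes 65.2% were called, 29.9% lower and 35.3% higher in tumors, so calls were the rule. Gpd1 passed the filter through the tumors alone and is left out of the counts. Of the other 9 members 8 were called, 7 lower and 1 higher, the same 8 had an unadjusted p under 0.05 (62.9% of all genes), and 7 had no overlap between groups (56.9%). Got1 fell from 289, 263, 123 and 139 CPM in control cultures to 72.4, 66.0, 78.5 and 78.9 CPM in tumors, a difference of -1.46 ± 0.27 on the log2 scale (adjusted p = 0.00144). Slc25a13 fell by 1.29, Got2 by 1.26, Gpd2 by 0.91, Slc25a12 by 0.88 and Mdh2 by 0.79 on the log2 scale, all without overlap between the groups. On the same scale leukocyte markers summed to 2.36 to 3.24 CPM in control cultures and 881 to 1057 CPM in control tumors, endothelial markers to 0.0804 to 0.466 and 129 to 192 CPM, and fibroblast markers to 610.4 to 1714 and 8569 to 9957 CPM. Most of the fibroblast sum was Col3a1, at 597 to 1692 CPM in control cultures and 5754 to 8070 CPM in control tumors. In control cultures Col1a1 and Dcn were at no more than 1.60 and 0.121 CPM. The part of these markers in the differences of the shuttle genes was not tested. Mdh1 fell by 0.36 (adjusted p = 0.0777) with overlap, a call that ended with the replicate block (adjusted p = 0.134), with control culture 3 or 4 or control tumor 1, 2 or 4 left out (adjusted p up to 0.173), and with library totals in place of TMM, which shifted the median of all genes by 0.30. Slc25a11 was at -0.07 (adjusted p = 0.612), and turned to 0.23 with library totals.

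Gpd1l rose by 0.89 ± 0.28 on the log2 scale (adjusted p = 0.0202), from 7.40, 7.15, 14.7 and 16.3 CPM in the cultures to 19.4, 22.5, 21.1 and 21.8 CPM in the tumors. Every tumor lay above every culture. Gpd1 rose by 2.07 ± 0.28, from 6 to 9 counts to 18 to 42 counts per library, and its call supports nothing, because of that filter. The adipocyte markers Adipoq and Cidec were at 0 in every culture, and the 4 adipocyte markers summed to 6.95 to 21.3 CPM in control tumors on the scale of the tumors. Most of that sum was Fabp4, at 6.95 to 18.2 CPM, and in control tumor 4 the other 3 markers, Adipoq, Cidec and Plin1, were at 0. Their part in the level of Gpd1 was not tested.

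Among the 18 tumors, Gpd1 and Gpd2 varied in opposite directions. After subtraction of group means, log2 CPM gave a Pearson r of -0.825 (permutation p = 1e-05, adjusted p = 0.00105 over 105 relations) and a Spearman rho of -0.874 (permutation p = 1e-05, the smallest that 100000 resamples can give), and r was -0.801 without the 2 tumors farthest from the median of Gpd1. Gpd1 rested on 14 to 46 counts per tumor. Gpd1 also varied with the summed adipocyte markers, which were mostly Fabp4 and of which 3 of 4 were at 0 in control tumor 4 and 60% tumor 5 (r = 0.781, rho = 0.816, permutation p = 0.00028 and 0.0001, adjusted p = 0.0147 and 0.0035, r without the 2 farthest tumors 0.815). Gpd2 went against them (r = -0.668, rho = -0.707, permutation p = 0.00295 and 0.00152, adjusted p = 0.0620 and 0.0399, r without the 2 farthest tumors -0.651). The tumors share library scaling, and the relation was not tested within each group.

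**Figure D5:**
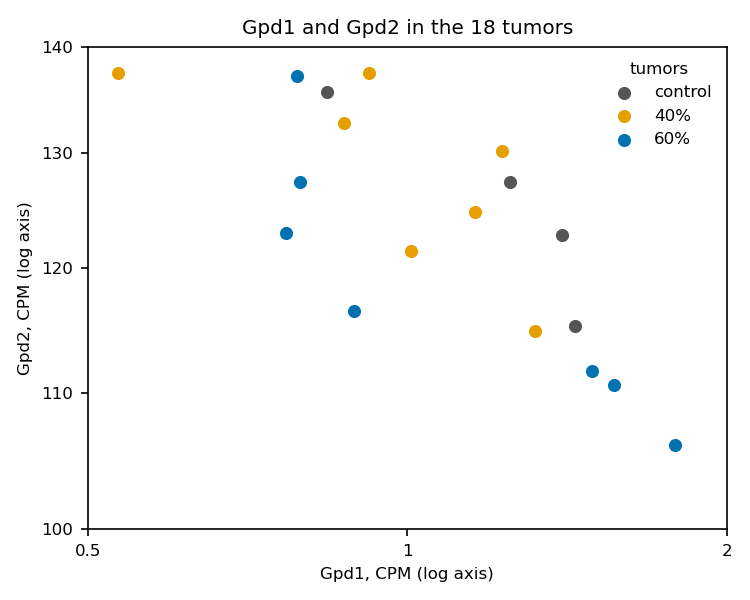
CPM of Gpd1 against CPM of Gpd2 on log axes, with a point for each of 4 control (gray), 7 m.12,436 40% (orange) and 7 m.12,436 60% (blue) tumors. Tumors with more Gpd1 have less Gpd2, and the 3 60% tumors with the highest Gpd1 have the lowest Gpd2 of that group, from 106 to 112 CPM.

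Mdh2 and Got2 varied together in the tumors (r = 0.757, rho = 0.862, permutation p = 0.00051 and 2e-05, adjusted p = 0.0178 and 0.00105, r without the 2 farthest tumors 0.771). The gene with the pattern most like that of Got2 over the 18 tumors was Cdk1, a cell cycle kinase (r = 0.924), followed by Puf60 (0.906) and Bex3 (0.890). For Slc25a13 it was Prodh, proline dehydrogenase (0.896), for Mdh2 Ap1s1 (0.957), for Got1 Plekho2 (0.876), for Gpd2 Ncoa6 (0.895) and for Gpd1 Entpd2 (0.829), with Plin4, a lipid droplet gene, among the 3 nearest to Gpd1 (0.811). The nearest gene was Commd1 for Mdh1 (0.846), Xab2 for Slc25a11 (0.848) and Hus1 for Gpd1l (0.800). These r values describe the highest among all genes kept and carry no test.

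The wider pathway was read from 42 genes in 7 lists around the shuttles, of which 39 were tested in cells and 38 in tumors. In cells 0 passed the threshold with or without the block, the smallest blocked adjusted p being 0.105 for Gpt2, a glutamate-pyruvate aminotransferase. The paralogs Mdh1b and Got1l1 had 0 to 2 counts in every library and were not tested. In 60% against control tumors 1 of the 38 rose and 0 fell, where 0.962% of all genes were called higher.

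That gene was Ass1, argininosuccinate synthase, which consumes aspartate. It had 65.5, 60.2, 66.7 and 84.3 CPM in control tumors 1 to 4, and 96.2, 116 and 144 CPM at the lowest, median and highest 60% tumor. All 60% tumors lay above all control tumors. Ass1 rose by 0.78 ± 0.14 on the log2 scale (adjusted p = 0.00922), and against 40% tumors, at 66.0 to 109.5 CPM, by 0.58 ± 0.11 (adjusted p = 0.0182). Between the 60% and 40% tumors 5 of 7 lay above every 40% tumor, and 0.814% of all genes were called higher. In cells Ass1 lay at 9.11 to 17.6 CPM in mutant and 10.4 to 19.9 CPM in control cultures, and those ranges overlapped.

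The other lists gave no call in the comparisons of mutant with control or of 60% with 40% tumors. In 60% against control tumors the smallest adjusted p among them were 0.130 for Slc25a10, the dicarboxylate carrier (-0.29), 0.198 for Nampt in the NAD pool (0.30) and 0.220 for Gk, glycerol kinase (0.26), on the log2 scale. Among cytosolic NADH genes it was 0.479 for Gapdh (-0.19) and among other ubiquinone reductases 0.430 for Dhodh (-0.19). In control tumors against control cells 22 of 38 fell and 3 rose, where 29.9% of all genes were called lower and 35.3% higher, with Gpt2 at -3.32, Asns at -3.11, Me1 at -1.35 and Cs, citrate synthase, at -1.13, and with Ass1 at 1.97, the sulfide quinone reductase Sqor at 0.73 and the glutamate carrier Slc25a22 at 0.44.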

How the data were processed

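Bulk RNA-seq of B78-D14 cells and subcutaneous tumors was read from 1 table of counts per gene. The authors used STAR for alignment on GRCm39 and featureCounts with an Ensembl annotation, and deposited raw counts. Whether strand was used is not given in the sources used here. Of 47 columns 26 were matched to samples, and 21, whose names fit no single label, were not used. The m.12,436 60% cells, the m.11,944 tumors and the other control tumors were thus not analysed here. Culture columns were matched by how far their numbers run and by a heading the study uses elsewhere, and those of mutant tumors through the words high and low. Columns holding 4 and 4 cultures and 7, 7 and 4 tumors remained. Gene symbols and positions are from GENCODE on GRCm39, where 56017 of 56748 genes were found.

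Counts were scaled by TMM, filtered by filterByExpr and tested with edgeR 4.0.16 in R 4.3.3 (glmQLFit, robust, and glmQLFTest) with Benjamini-Hochberg adjustment over all genes tested and a threshold of 0.1. Cells were fitted apart from the 18 tumors, which shared 1 fit. CPM per kb used the merged exon length of a gene. Ratios used a prior count of 0.5 and exact permutation with scipy 1.17.1, and relations across tumors used log2 CPM with a prior count of 2. DESeq2 1.42.0 and limma-voom 3.58.1 were alternatives, beside other scalings, no filter, a threshold of 0.05, a replicate block, only the groups compared, and each sample left out. The fitting was tested on simulated data. Depth ran from 16475735 to 36173502 counts per sample, and counting error alone makes counts as low as those of Gpd1 imprecise.

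The replicate numbers come from the labels. Across genes, the deviations of same-numbered cultures from their group means correlated at 0.718 to 0.832. The mean of -0.264 for other numbers adds no separate evidence, because deviations from a group mean sum to 0. In tumors the mean same-number values were -0.156, -0.006 and -0.026. Cells were therefore also given with the block. No pair of libraries within a group agreed within sampling noise.

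All 10 members were named in every comparison, with list genes past the threshold or, failing that, the list gene of smallest p, and the 3 genes most like each member over the tumors. In the text the nearest gene is given for 9 of the members, with all 3 for Got2, and that of Slc25a12 is not reported here. Asns in the cultures was named after its values were seen. The members, lists and tests were chosen with earlier results of these data known. The relations across tumors, the fit without muscle-bearing tumors and the blocked fit without each number were added after the values were seen.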

Additional observations from a re-analysis of the deposited data

Results flagged for a closer look

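Of 75 groups of values examined, 4 held a sample whose gap to the nearest of the others took a larger part of the group's range than Dixon's 95% limit, and chance gives about 1 in 20 groups such a sample. Slc25a11 was lowest in m.12,436 40% tumor 4, at 61.3 CPM where the group's median was 77.2 CPM, and that tumor also had the smallest library. The log2 ratio of Mdh1 to Mdh2 was highest in control culture 4, at -1.13 against a median of -1.46, and lowest in m.12,436 40% tumor 2, at -1.29 against -0.85. The log2 ratio of Gpd1l to Gpd2 was lowest in m.12,436 60% tumor 5, at -2.82 against -2.38, the tumor with the highest Gpd2 of its group. None of these samples was left out of the values reported.

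The difference of Got2 from control tumors was not the same in m.12,436 60% and 40% tumors. The difference between those tumors was itself tested, with a log2 fold change of -0.25 and an adjusted p of 0.0744 from edgeR's quasi-likelihood test. The call on that difference was lost with a replicate block, at an adjusted p of 0.127.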

How the results depend on the processing

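For m.11,944 60% against control cells, the number of genes past the threshold moved from 5 to 84 with DESeq2 and 919 with the replicate block, and the shuttle genes among them from 0 to 3 with the block. Leaving out any 1 culture gave 0 genes without the block. With the block, leaving out number 1, 2, 3 or 4 gave 89, 110, 602 or 2092 genes, of which 0 to 3 were shuttle genes. For 60% against control tumors the 374 genes became 150 at an adjusted p of 0.05, 1056 with DESeq2, 178 with the block, 943 with only these groups, 16 without muscle-bearing tumors, and 66 to 724 with a tumor left out. The shuttle genes called were 0 at 0.05, with the block and without muscle-bearing tumors, 2 with only these groups, and 0 to 1 with a tumor left out. For 40% against control tumors DESeq2 gave 5 genes and leaving out a tumor 0 to 4. For 60% against 40% tumors the 293 genes became 113 at 0.05, 744 with DESeq2, 178 without the filter, and 108 to 452 with a tumor left out, and the shuttle genes became 0 at 0.05 and with the block, and 0 to 1 with a tumor left out. Leaving out a sample gave 0 to 2 ratios past the threshold, the most without m.12,436 40% tumor 3. The cause of these changes was not tested, apart from the fewer samples or genes some settings hold by construction.

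Other alternatives turned 4 single values. Gpd1l in 60% against 40% tumors became 0.00286 with limma-voom, Got1 in 60% against control tumors 0.0163 with the block, Gpd1 in the same comparison 0.130 without muscle-bearing tumors, and Slc25a11 in control tumors against cells 0.226 with library totals. None of these 4 was a called value. Leaving out a sample turned the sign in 52 cases and kept sign and call in 692. In cells the log2 difference then ran from -0.073 to 0.178 for Mdh1, -0.316 to 0.089 for Slc25a12, -0.067 to 0.164 for Slc25a13 and -0.060 to 0.339 for Gpd1l, and that of the ratio from -0.259 to 0.101 for Got1 to Got2 and -0.141 to 0.164 for Gpd1 to Gpd1l. In 60% against control tumors it ran from -0.055 to 0.036 for Got1, -0.055 to 0.0054 for Slc25a11, -0.268 to 0.041 for the ratio of Gpd1 to Gpd1l and -0.016 to 0.087 for that of Gpd1l to Gpd2. In 40% against control tumors it ran from -0.0013 to 0.088 for Got1, -0.059 to 0.054 for Got2, -0.097 to 0.017 for Slc25a13 and -0.0019 to 0.088 for Gpd2. In 60% against 40% tumors it ran from -0.089 to 0.00030 for Mdh2, -0.082 to 0.0031 for Got1, -0.033 to 0.022 for Gpd1l and -0.056 to 0.042 for the ratio of Mdh1 to Mdh2. In tumors the same replicate numbers did not mark samples that deviate together, and the block lost the call on Got2 there, at -0.25 with an adjusted p of 0.213 against controls. Gpd1, with 4 to 46 counts per library, is limited by depth.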
